A study of Mus musculus with 12 samples.

Results

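The tumors described here are those given ADI-PEG20 together with chloroquine (CQ), set against untreated tumors (NT): 6 of the 12 RNA libraries of the study, 3 in each group, chosen by the treatment that the labels give. All 12 tumors came from BVMA01R, a mouse sarcoma line with the genotype Myf5-Cre;p53-/-;Ass1-/-, in female C57BL/6J mice. The other 6 libraries are 3 tumors given ADI-PEG20 and 3 given CQ, and they are used below only beside the combination. Total RNA came from frozen tumors and was depleted of ribosomal RNA before sequencing. Every library, the untreated ones included, shares the driver, the loss of p53 and Ass1 and the line, so the comparison speaks for 1 line only. Doses, treatment times and ages are not in the labels used here. Whether the libraries come from separate mice is not stated, and the p-values then measure only the spread between these samples, which may be technical.

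ADI-PEG20 is a PEGylated bacterial arginine deiminase that breaks down arginine in the blood. Cells without argininosuccinate synthase, the product of Ass1, cannot rebuild arginine from citrulline and depend on uptake. Cells short of an amino acid are known to translate the transcription factor ATF4, which acts on genes for amino acid transport, serine and asparagine synthesis and the handling of sulfur amino acids. Chloroquine collects in lysosomes, raises their pH and blocks the last step of autophagy, the route by which cells recycle their own protein, and loss of lysosomal function is known to activate TFEB and related factors that act on lysosomal genes.

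The short stretches below show where the binding letters of these factors were found near the starts of genes described later. TGATGNAA is the core of the element bound by ATF4 with a C/EBP partner, and TCACGTGA is the core of the element bound by TFEB. The sequences are from RefSeq, build GRCm38.p6, read in the direction of the gene, each 30 bases long, with the matching letters in capitals. They were chosen as the holders of each motif with the smallest p-values in their lists. Other holders lay on both sides in log2 difference from NT. For TGATGNAA these ran from 0.90 (Vldlr) to -0.26 (Atf3), and for TCACGTGA from 0.22 (Ctsd) to -0.22 (Mcoln1).
Trib3, chr2:152344028-152344057, minus strand: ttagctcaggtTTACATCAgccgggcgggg
Asns, chr6:7693214-7693243, minus strand: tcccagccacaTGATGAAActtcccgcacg
Slc7a11, chr3:50443661-50443690, minus strand: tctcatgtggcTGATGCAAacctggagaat
Ctsa, chr2:164833749-164833778, plus strand: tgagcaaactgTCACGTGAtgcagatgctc
Cln3, chr7:126583340-126583369, minus strand: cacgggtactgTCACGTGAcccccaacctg

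The Trib3 match is on the opposite strand and lies after the RefSeq start of the gene, and the other matches shown lie before it. Slc7a11 and Ctsa have 2 matches each in their windows, of which 1 is shown. Windows ran from 250 bases before to 50 bases after a start and were searched on both strands. TGATGNAA was in the window of 10 of 25 genes of the stress response list, 3 of 18 amino acid transporters and 3 of 19 serine and related synthesis genes that had a window, against 2.78% of the 11296 genes of the expression table with one and 4.51% of all 27025 genes. TCACGTGA was in 5 of 45 lysosomal genes and 3 of 12 proton pump genes, against 2.05% and 1.12%. These are counts of letters, and binding was not measured.

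Libraries held between 15501998 and 28410940 reads assigned to the 16335 genes, recovered from the deposited values, and those compared here ran from 15501998 to 24960414. Levels are given as CPM, reads scaled to the size of the library, and differences as log2 ADI-PEG20+CQ minus NT, with a standard error (SE) and a p-value from limma. Gm26917, annotated as a noncoding RNA at chr17:39843013-39846341, took 8.17%, 16.4% and 8.37% of the reads of NT 1, 2 and 3. In the combination libraries it took 6.29%, 5.40% and 5.09%, so its share does not overlap between the groups. Its largest shares of the 12 libraries were in ADI-PEG20 1 (22.8%) and NT 2. These also had the lowest library quality weights estimated by limma, 0.283 and 0.516. What these reads are, and the part of Gm26917 in the results, was not tested. Vim, the mesenchymal intermediate filament, was abundant, at 2146 to 3624 CPM in NT and 2089 to 2871 CPM in the combination. Myf5, the myogenic factor whose promoter drives the Cre, was at 54.3, 40.5 and 28.6 CPM in NT and 28.5, 35.8 and 18.8 CPM in the combination. Ass1, deleted in the line, was still read at 6.83, 9.39 and 10.3 CPM in NT and 9.97, 11.3 and 17.2 CPM in the combination, and Trp53 at 13.0 to 26.7 CPM over the same libraries. Whole-gene reads do not show whether the deleted exons are among them, and host cells in a tumor keep both genes.

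No gene passed an adjusted p of 0.05 (limma, Benjamini-Hochberg over 16335 genes, 0% called), and the smallest adjusted p was 0.187. Voom on the recovered reads called 0 as well, and the authors' deposited table also has 0, with a smallest adjusted p of 0.12. Nothing below is therefore called, and values are given as differences with their error. At an unadjusted p under 0.05, 767 genes were higher with the combination (4.7%) and 646 were lower (3.95%). With every library shifted to the same median these counts were 619 and 843. The 3 libraries of each group did not overlap for 1218 genes on the higher side (7.46%) and 1293 on the lower side (7.92%). The shares of all genes in this paragraph are those to set beside the counts of each list below. Of all genes, 8293 had a positive and 8042 a negative difference, with a median of 0.01.

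**Figure D1:**
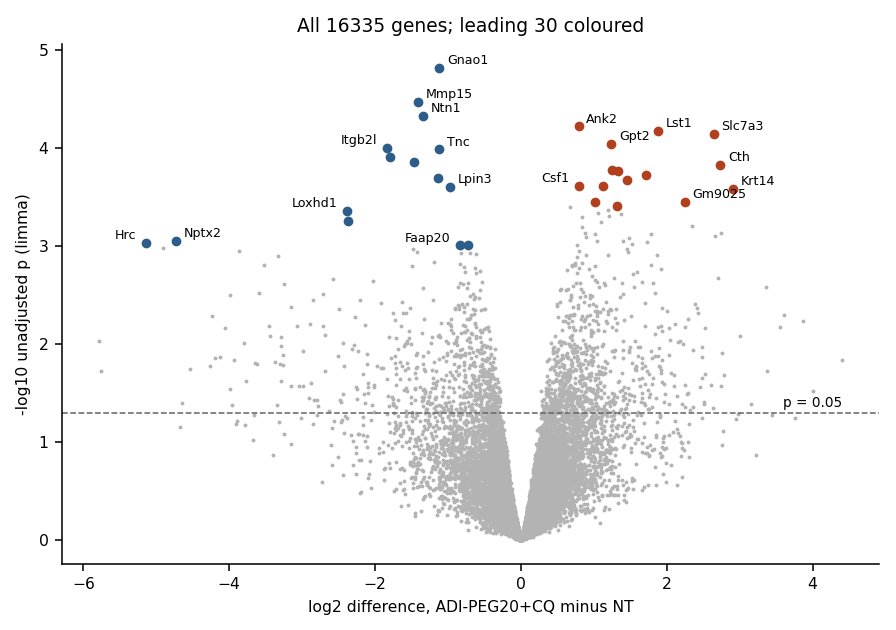
Every gene is a point: the log2 difference between ADI-PEG20+CQ and NT on the x axis and the negative log10 of the unadjusted limma p on the y axis, with the 30 leading genes coloured and some of them named. Gnao1 at -1.12 has the smallest p, and Hrc and Nptx2, at few reads, lie farthest to the left among the coloured points.

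The genes with the most separated levels were, on the higher side, arginine and glycine transporters, enzymes of transsulfuration and alanine metabolism, the growth factor Csf1 and genes of myeloid cells. On the lower side they were the guidance cue Ntn1, the G protein subunit gene Gnao1, the membrane protease gene Mmp15 and the matrix protein gene Tnc. These 15 and 15 genes were picked as the smallest p-values among genes whose groups did not overlap, so that they are separated is given by the choice.

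**Figure D2:**
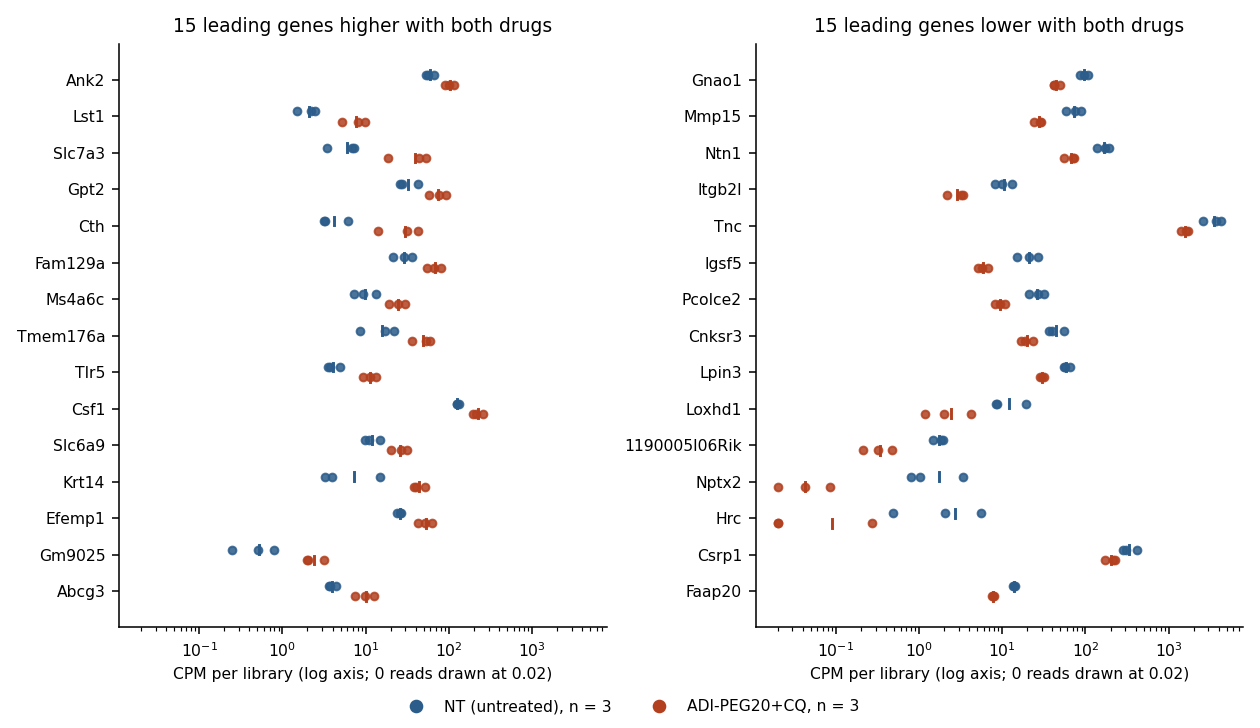
CPM of each of the 6 libraries on a log axis for the 15 leading genes on each side, NT in blue and ADI-PEG20+CQ in red, with short bars at the group means; 0 reads are drawn at 0.02. Slc7a3, Cth and Krt14 show the widest gaps on the higher side, and Tnc is by far the most abundant gene shown.

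Carriers of arginine were higher with the combination. Slc7a3 (ENSMUSG00000031297, chrX:101079210-101086020, minus strand), which encodes the cationic amino acid transporter CAT3 that carries arginine, was at 3.48, 6.94 and 7.33 CPM in NT and 18.6, 53.6 and 44.0 CPM with the combination. The lowest treated tumor was above the highest untreated one, and treated tumor 1 was well below the other treated ones. The difference was 2.64 (SE 0.47, 95% limits 1.64 to 3.65, adjusted p 0.187 by limma). The other arginine transporters measured lay on the same side. Slc7a1, encoding CAT1, was at 69.0, 76.9 and 92.7 CPM in NT and 102, 120 and 121 CPM in treated tumors, a difference of 0.53 (SE 0.15). Slc7a2, encoding CAT2, was at 48.2, 46.2 and 69.3 CPM against 77.4, 88.6 and 132 CPM, a difference of 0.85 (SE 0.31). Groups did not overlap for any of the 3 genes.

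Cystine and glycine carriers were also higher. Slc7a11, the cystine/glutamate exchanger whose TGATGCAA match is printed above, was at 5.75, 8.53 and 13.1 CPM in NT and 18.1, 26.2 and 34.2 CPM with the combination, a difference of 1.55 (SE 0.42). Slc6a9, the glycine transporter GlyT1, was at 9.83, 10.99 and 14.7 CPM against 20.2, 26.4 and 31.5 CPM, a difference of 1.13 (SE 0.23, adjusted p 0.202 by limma). Slc43a1, a carrier of large neutral amino acids, lay the other way, at 7.63, 7.06 and 4.72 CPM in NT and 3.21, 3.47 and 2.91 CPM in treated tumors. Over the list, 20 of 24 measured amino acid transporters had a positive difference, with a median of 0.34 against 0.01 over all genes. Of these, 6 were higher and 1 was lower at an unadjusted p under 0.05, where all genes gave 4.7% and 3.95%. With 1 of the 6 libraries left out, 4 (without the treated tumor 3) to 10 (without NT 3) were higher. The mean log2 CPM of the list was 4.76, 4.74 and 4.94 in NT and 5.10, 5.28 and 5.40 with the combination, without overlap. Carriers of leucine and glutamine differed less: Slc7a5 differed by 0.38 (SE 0.23) and Slc38a2 by -0.06 (SE 0.16).

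Among stress response genes the widest difference was that of Cth (ENSMUSG00000028179, chr3:157894248-157925077, minus strand), which encodes cystathionine gamma-lyase, the enzyme that makes cysteine from cystathionine. Its level was 3.28, 3.19 and 6.12 CPM in NT and 14.2, 42.9 and 31.3 CPM with the combination. The difference was 2.73 (SE 0.52, adjusted p 0.197 by limma), and treated tumor 1 was again the lowest of its group. Trib3, a pseudokinase that restrains ATF4, was at 3.08, 15.7 and 11.9 CPM against 20.1, 46.2 and 33.5 CPM, a difference of 1.92 (SE 0.49). Aldh1l2, a mitochondrial folate enzyme, was at 29.8, 38.8 and 68.5 CPM against 77.4, 145 and 122 CPM, a difference of 1.37 (SE 0.30). Sesn2, a leucine sensor that restrains mTORC1, was at 16.9, 26.6 and 22.8 CPM against 31.4, 44.1 and 47.5 CPM. In all of these the untreated and treated ranges were apart.

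Atf4 itself and other factors of the response differed little. Atf4 mRNA was at 238, 266 and 215 CPM in NT and 243, 310 and 245 CPM with the combination, a difference of 0.15 (SE 0.15). Ddit3, the gene of the pro-apoptotic factor CHOP, differed by -0.18 (SE 0.21) and Atf3 by -0.26 (SE 0.53), and the groups of all 3 overlapped. Chac1, which degrades glutathione, was at 5.99 to 14.1 CPM in NT and 12.6 to 22.8 CPM in treated tumors, also overlapping. Over the stress list 24 of 34 members had a positive difference, with a median of 0.24. At an unadjusted p under 0.05, 8 were higher and 0 lower, and without NT 1, the untreated tumor lowest in this list, 5 were higher with a median of 0.12. Without the treated tumor 2 the count was also 5. Chaperones of the endoplasmic reticulum, which answer to unfolded protein, had a median of 0.10, and 0 of 21 passed the unadjusted threshold. Without NT 2 their median was -0.03.

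Enzymes that make serine, folate-bound carbon units, asparagine and proline were mostly higher. Gpt2 (chr8:85492576-85527560, plus strand), the mitochondrial alanine aminotransferase, was at 27.6, 25.8 and 42.7 CPM in NT and 57.6, 91.4 and 76.0 CPM with the combination, a difference of 1.24 (SE 0.22, adjusted p 0.187 by limma). Psat1 and Psph, steps of serine synthesis after Phgdh, differed by 0.80 (SE 0.19) and 1.02 (SE 0.26). Asns, asparagine synthetase, was at 57.4, 52.5 and 65.5 CPM against 91.3, 158 and 113 CPM, a difference of 1.02 (SE 0.27). The groups of these genes were apart in every case.
Phgdh, the entry step of serine synthesis, was at 121, 169 and 129 CPM in NT and 185, 240 and 192 CPM in treated tumors. Mthfd2, a mitochondrial folate enzyme, differed by 0.89 (SE 0.21) and Pycr1, which closes the proline ring, by 0.87 (SE 0.27). Gldc, the glycine decarboxylase that spends glycine, lay the other way, at 20.1, 34.9 and 30.03 CPM in NT and 14.8, 14.1 and 11.3 CPM with the combination, a difference of -1.05 (SE 0.41). Got2 was lower by 0.30 on the log2 scale. In all, 8 of 21 were higher and 2 lower at an unadjusted p under 0.05, and 15 of 21 had a positive difference. The arginine and polyamine enzymes did not share this: 7 of 22 had a positive difference, the median was -0.13, and 0 were higher and 1 lower at that threshold. Asl, which releases arginine from argininosuccinate, differed by 0.01 (SE 0.27), and Oaz1, the antizyme that restrains polyamine synthesis, by -0.52 (SE 0.22).

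Redox and carbon metabolism genes followed no common direction. The counts of this paragraph stand beside 4.7% of all genes higher and 3.95% lower at an unadjusted p under 0.05. Of 25 glutathione and NRF2 genes, 4 were higher (Slc7a11, Gstm1, Gss and Nqo1) and 0 lower at an unadjusted p under 0.05, with a median of 0.07. With NT 1 or the treated tumor 2 left out, 2 were higher. Nqo1, a quinone reductase, was at 11.1, 7.80 and 16.8 CPM in NT and 18.1, 33.3 and 25.6 CPM in treated tumors. Glycolysis genes lay on the lower side, 18 of 22 with a median of -0.28 and 3 of 22 at an unadjusted p under 0.05. Ldha, lactate dehydrogenase A, shows how: 583, 626 and 384 CPM in NT against 373, 393 and 339 CPM, so that NT 3 stood close to the treated tumors and the groups overlapped. Without NT 2 the median of the glycolysis list was -0.14 and 1 of 22 was lower at that threshold, and without NT 3 it was -0.45 with 8 lower. Without NT 1, treated tumor 1 or treated tumor 3 the count was 0. Cholesterol synthesis genes had a median of -0.23 (19 of 25 negative, 2 lower at the threshold) and nuclear genes of oxidative phosphorylation -0.06, with 5 of 49 lower. Without NT 1 the cholesterol median was -0.12 with 1 lower, without NT 2 there were 0 lower, and without the treated tumor 1 or 3 there was 1. For oxidative phosphorylation 0 were lower without NT 1, where the median was 0.02, or without the treated tumor 3, 2 without the treated tumor 1, 3 without NT 2 and 8 without NT 3. Low oxygen genes had a median of -0.23 with 2 of 20 lower, -0.06 without NT 2 and -0.07 without the treated tumor 1, both with 0 lower. Genes of fatty acid synthesis, uptake and storage had a median of -0.01 with 4 of 34 higher and 2 lower, among them Lpl, lipoprotein lipase, at 1.17 (SE 0.33). Mitochondrially encoded transcripts (median 0.14) and ribosomal proteins (0.06) had 0 genes at the threshold, and p53 targets (0.01) 1 of 22 higher and 2 lower. The cell cycle list had a median of -0.05, and Mki67, the proliferation marker, differed by 0.01 (SE 0.22).

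**Figure D3:**
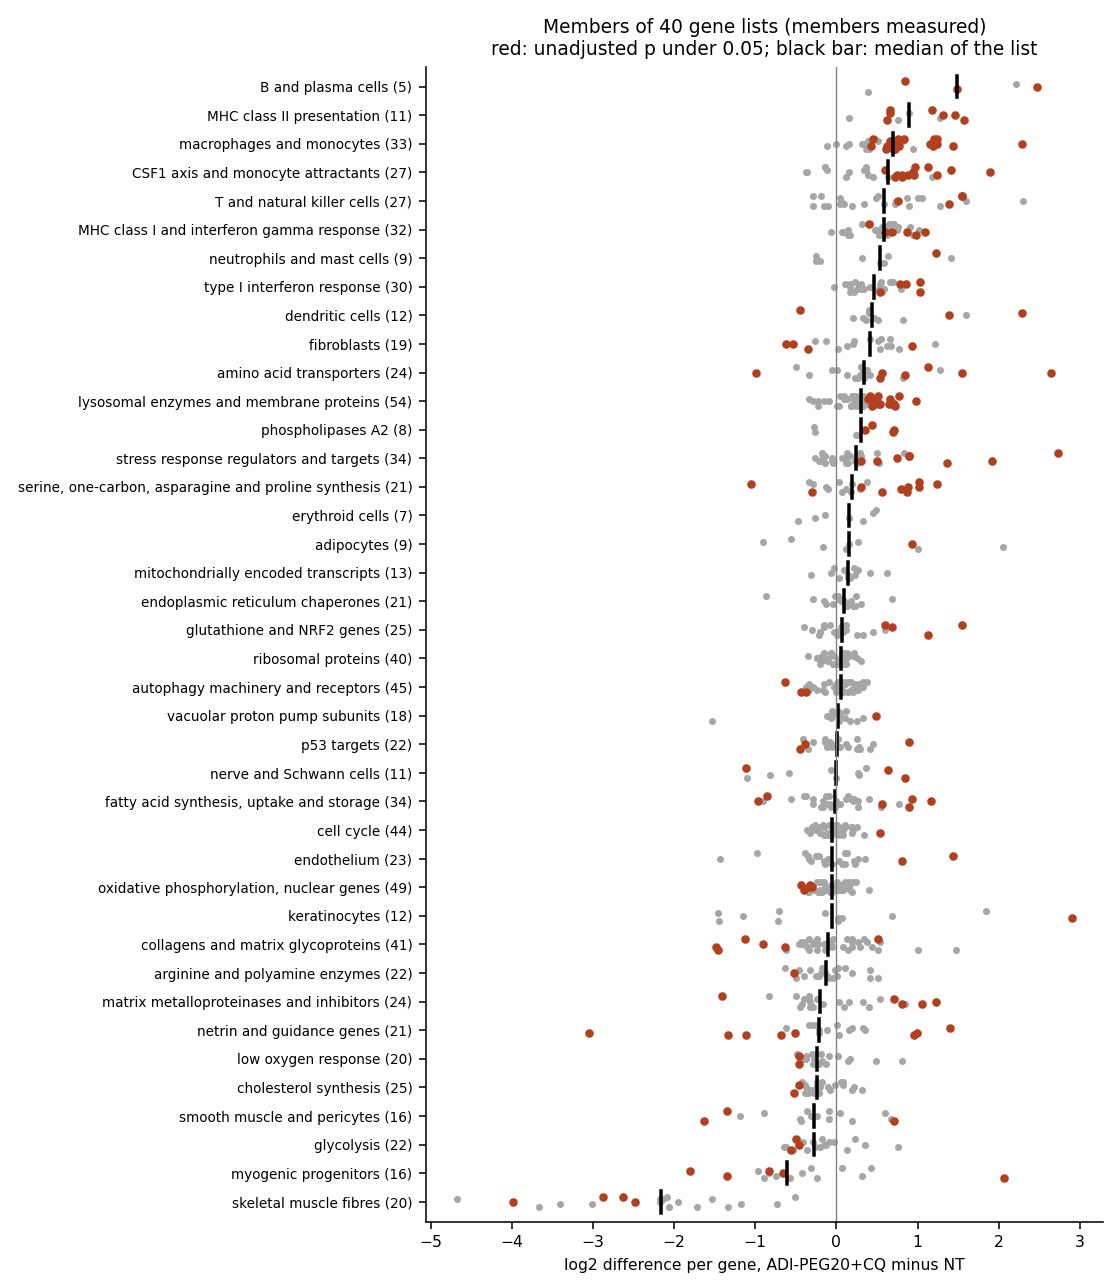
Log2 difference of every measured member (points; red where the unadjusted limma p is under 0.05) in 40 gene lists, ordered by the median of the list (black bar), with the number of members measured in brackets. Immune lists fill the top, with macrophages and monocytes at 0.70, and skeletal muscle fibres stand alone at the bottom at -2.16.

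Lysosomal genes were higher with the combination as a broad, shallow group. Of 54 members 48 had a positive difference, with a median of 0.30. At an unadjusted p under 0.05, 15 were higher and 0 lower, where all genes gave 4.7% and 3.95%. For 20 the groups did not overlap on the higher side, where all genes gave 7.46%. Ppt1, a lysosomal thioesterase, was at 36.4, 29.8 and 44.4 CPM in NT and 65.3, 58.1 and 63.5 CPM with the combination, a difference of 0.77 (SE 0.19). Tpp1, a lysosomal peptidase, was at 67.8, 68.1 and 61.7 CPM against 93.3, 91.0 and 102 CPM, a difference of 0.53 (SE 0.15). Acp2, the lysosomal acid phosphatase, was at 35.5, 32.8 and 41.1 CPM against 60.1, 50.8 and 60.8 CPM. Each of these was separated with room between the groups.
The motif holders printed above were closer together: Ctsa, the protective protein of the lysosome, differed by 0.52 (SE 0.23) and Cln3 by 0.38 (SE 0.30). Mitf, a relative of TFEB, was at 11.5, 13.0 and 13.5 CPM in NT and 22.7, 21.8 and 18.6 CPM in treated tumors, whereas Tfeb itself differed by 0.09 (SE 0.22) and Tfe3 by 0.09 (SE 0.16). Part of the list is abundant in macrophages, among them Ctsc, Ctss and Acp5, and macrophage markers lay on the same side (next paragraphs), with a summed level of 2530 to 3204 CPM in NT and 3555 to 4329 CPM with the combination. Their part in the lysosomal difference was not tested. Without the treated tumor 1, 10 lysosomal genes were higher at an unadjusted p under 0.05, and without the treated tumor 3 also 10.

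The proton pump and autophagy genes had medians near that of all genes. Subunits of the vacuolar proton pump, which acidifies the lysosome, had a median of 0.02 with 1 of 18 higher at an unadjusted p under 0.05, Atp6v1f. All genes gave 4.7% higher and 3.95% lower at that threshold. Autophagy machinery had a median of 0.06, and of 45 genes 0 were higher and 3 lower at that threshold: Calcoco1, Atg4d and Ulk1, the kinase that starts autophagy, which was at 79.7, 85.4 and 94.4 CPM in NT and 67.6, 54.0 and 71.9 CPM in treated tumors. Without NT 2 or the treated tumor 1, 0 autophagy genes were lower and 1 was higher, and without the treated tumor 2 1 was lower. Sqstm1, the cargo receptor p62, differed by 0.33 (SE 0.19), and Map1lc3b, encoding LC3B, by 0.04 (SE 0.15). These are mRNA levels, and neither autophagic flux nor lysosomal pH was measured.

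Csf1 and the genes of macrophages were higher in treated tumors. Csf1 (ENSMUSG00000014599, chr3:107741048-107760469, minus strand), the growth factor that macrophages need to survive, was at 124, 124 and 131 CPM in NT and 196, 256 and 213 CPM with the combination. The untreated tumors were nearly equal and all treated tumors were above them, with a difference of 0.80 (SE 0.16, 95% limits 0.45 to 1.15, adjusted p 0.202 by limma). Its receptor Csf1r was at 152, 186 and 195 CPM against 290, 258 and 350 CPM, a difference of 0.75 (SE 0.19). Il34, the other ligand of that receptor, lay the other way and overlapped, at -0.36 (SE 0.29). In bulk tumors, more cells of a type and more RNA per cell cannot be told apart, and this holds for all cell type lists here.
Attractants of monocytes and their receptors accompanied Csf1. Ccr2, the receptor of blood monocytes, was at 13.4, 12.6 and 27.7 CPM in NT and 49.8, 24.7 and 49.8 CPM with the combination, where NT 3 was above treated tumor 2. Cx3cr1 was at 43.5, 40.5 and 61.1 CPM against 86.3, 89.6 and 105 CPM, without overlap. Ccl2 and Ccl7, which attract monocytes, differed by 0.88 (SE 0.29) and 0.80 (SE 0.23). Of the 27 measured genes of this axis 13 were higher and 0 lower at an unadjusted p under 0.05, with a median of 0.63. Without NT 1, 8 were higher and the median was 0.42, and with any other of the 6 libraries left out 9 to 15 were higher.

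Of 33 macrophage and monocyte markers, 31 had a positive difference, with a median of 0.70, and 19 were higher and 0 lower at an unadjusted p under 0.05. Their summed level was 2530, 3204 and 2767 CPM in NT and 4329, 3555 and 4156 CPM with the combination, apart by a small gap between NT 2 and treated tumor 2. Mrc1, the mannose receptor CD206, was at 61.9, 118 and 61.7 CPM against 197, 188 and 146 CPM, a difference of 1.19 (SE 0.26). Fcgr1, the high-affinity Fc receptor, was at 15.2, 13.0 and 28.4 CPM against 49.0, 31.8 and 44.0 CPM, a difference of 1.20 (SE 0.26). C1qc, a complement chain that tissue macrophages make, was at 178, 223 and 209 CPM against 368, 282 and 348 CPM. The groups of all 3 were apart, and without the treated tumor 1 13 markers of the list were higher at an unadjusted p under 0.05. The count was also 13 without NT 1, and 16 to 21 with any other of the 6 left out.
Leading genes of myeloid cells outside the list lay on the same side: Lst1, a leukocyte transcript, was at 1.48, 2.21 and 2.49 CPM in NT and 8.17, 5.18 and 9.82 CPM in treated tumors, a difference of 1.88 (SE 0.33). Ms4a6c, Tmem176a and Tlr5, the receptor for flagellin, differed by 1.33 (SE 0.26), 1.72 (SE 0.34) and 1.46 (SE 0.29).

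Antigen presentation and interferon genes were higher on the median and depended on which untreated tumors were counted. All 11 measured genes of MHC class II presentation had a positive difference, with a median of 0.89, and 7 were higher at an unadjusted p under 0.05. Cd74, the invariant chain, was at 137, 106 and 350 CPM in NT and 335, 287 and 826 CPM with the combination. NT 3 was above treated tumors 1 and 2. For 2 of the 11 genes the groups did not overlap, on the higher side, where all genes gave 7.46%.
For MHC class I and the interferon gamma response, 31 of 32 genes had a positive difference, with a median of 0.58 and 6 higher at that threshold. H2-K1, a class I heavy chain, was at 174, 170 and 379 CPM in NT and 444, 251 and 617 CPM in treated tumors, with NT 3 inside the treated range. For the type I interferon response, 29 of 30 were positive with a median of 0.46 and 5 higher at that threshold. The groups were apart for 0 of 30, where all genes gave 7.46% on the higher side. Irf7, a regulator of the interferons, was at 52.0, 56.9 and 148 CPM against 176, 66.2 and 158 CPM. NT 3 and the treated tumors 1 and 3 were high, and NT 1, NT 2 and the treated tumor 2 were low.
Leaving out NT 2 left 0 of 32 class I and interferon gamma genes, 0 of 30 type I genes and 2 of 11 class II genes higher at an unadjusted p under 0.05. Leaving out NT 3 gave 20 of 32, 18 of 30 and 9 of 11. Without NT 1 the counts were 3, 0 and 2. Without the treated tumor 1 they were 1, 0 and 4, without the treated tumor 2 they were 20, 20 and 9, and without the treated tumor 3 they were 0 in all 3 lists.

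Lymphocyte genes had few reads. T and natural killer cell markers had a median of 0.59, with 22 of 27 positive and 4 higher at an unadjusted p under 0.05, at summed levels of 30.7, 43.4 and 59.9 CPM in NT and 66.9, 44.3 and 73.8 CPM with the combination. Cd3e, a chain of the T cell receptor complex, differed by 0.04 (SE 0.43). Without NT 1, treated tumor 1 or treated tumor 3 the count was 1, with medians of 0.31, 0.52 and 0.29, and without the treated tumor 2 or NT 3 it was 5 with medians of 0.89 and 0.90. Among genes with a mean of at least 1 log2 CPM the median of the list was 0.07. All 5 B and plasma cell genes measured had a positive difference, with 3 higher at that threshold, 0 without NT 1 and 1 without the treated tumor 1 or 3. The median was 1.49, and 0.85 without NT 2. Igkc, the kappa light chain, was at 1.24, 2.27 and 5.80 CPM in NT and 21.99, 8.39 and 15.7 CPM in treated tumors.

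**Figure D4:**
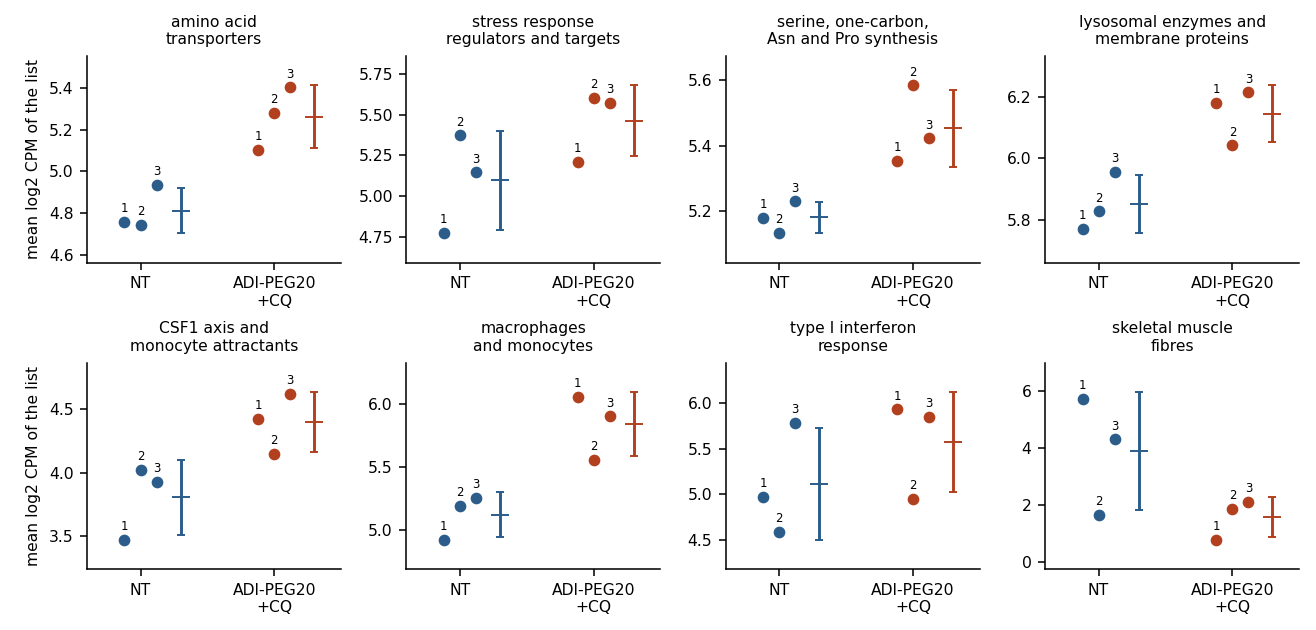
Mean log2 CPM of 8 gene lists in each library, numbered by replicate, with the mean and SD of each group at its right. Amino acid transporters, serine and related synthesis, lysosomal genes, the CSF1 axis and macrophages are apart between the groups; the stress response and type I interferon lists overlap, and for skeletal muscle fibres NT 2 lies within the treated range.

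On the lower side, Gnao1, Mmp15 and Ntn1 had the smallest p-values. Ntn1 (ENSMUSG00000020902, chr11:68209364-68400823, minus strand), encoding netrin-1, a secreted guidance cue that also keeps cells alive through its receptors, was at 194, 172 and 139 CPM in NT and 70.7, 55.5 and 73.1 CPM with the combination. The lowest untreated tumor was well above the highest treated one, and the difference was -1.34 (SE 0.23, 95% limits -1.83 to -0.85, adjusted p 0.187 by limma). Gnao1 (chr8:93809966-93969388, plus strand), the alpha subunit of the G protein Go, was at 107, 95.8 and 86.9 CPM against 42.2, 48.9 and 42.2 CPM, a difference of -1.12 (SE 0.17, adjusted p 0.187 by limma). Slit2, a repulsive guidance cue of the same list, lay the other way at 45.0, 63.7 and 135 CPM in NT and 196, 150 and 245 CPM in treated tumors. Of the 21 guidance genes 3 were higher and 5 lower at an unadjusted p under 0.05, with a median of -0.21, so the list had no common direction. Without the treated tumor 2 the counts were 4 and 4, without NT 3 they were 4 and 3, without the treated tumor 1 they were 1 and 7, and without NT 2 they were 1 and 5.

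Tnc (chr4:63959785-64047015, minus strand), tenascin-C, a matrix protein of wounds and tumors, was among the more abundant mRNAs, at 4262, 3685 and 2601 CPM in NT and 1728, 1406 and 1625 CPM with the combination. The difference was -1.12 (SE 0.21, adjusted p 0.187 by limma) with the groups apart. Pcolce2, an enhancer of procollagen processing, was at 31.9, 26.8 and 20.7 CPM against 10.9, 9.51 and 8.14 CPM, a difference of -1.46 (SE 0.28). Col7a1, the anchoring fibril collagen, was at 217, 525 and 265 CPM against 109, 167 and 74.9 CPM, and Loxl1, which crosslinks elastin, at 611, 541 and 526 CPM against 376, 319 and 389 CPM. In each the treated tumors were all below the untreated ones.
The fibrillar collagens overlapped: Col1a1 differed by -0.62 (SE 0.45). Of 41 collagens and matrix glycoproteins 1 was higher, Vcan, and 5 were lower at an unadjusted p under 0.05, with a median of -0.10. All genes gave 4.7% higher and 3.95% lower at that threshold. Mmp15 (chr8:95352268-95375080, plus strand), a membrane-type matrix metalloproteinase, was at 57.7, 88.0 and 74.1 CPM in NT and 28.7, 29.0 and 24.1 CPM in treated tumors, a difference of -1.41 (SE 0.23, adjusted p 0.187 by limma). In its family 11 of 24 genes had a positive and 13 a negative difference, and Timp1, an inhibitor of these proteases, differed by 0.80 (SE 0.29). At that threshold 4 of the 24 were higher and 1 was lower, the lower count being near the share of all genes. Without NT 1 these counts were 0 and 2, without NT 2 they were 2 and 4, without NT 3 they were 4 and 3, and without the treated tumor 1 they were 1 and 2. Without the treated tumor 3 they were 1 and 1. Phospholipases A2 were 4 of 8 higher and 0 lower (1 without the treated tumor 1, 2 without NT 2 or NT 3), among them Pla2r1, the receptor of secreted forms, at 0.70 (SE 0.22), and Pla2g7 at 0.71 (SE 0.25).

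Further genes of the leading set have varied roles. Krt14, a keratin of basal epithelium, was at 3.28, 3.93 and 14.7 CPM in NT and 52.4, 38.5 and 40.3 CPM with the combination, a difference of 2.91 (SE 0.59). The other keratinocyte genes did not accompany it: the list had 6 of 12 on each side, and Krt5, its usual partner, was at 0, 1.60 and 12.3 CPM against 0.0428, 12.2 and 0.091 CPM. Efemp1, a fibulin, was at 24.0, 26.4 and 26.2 CPM in NT and 52.1, 42.6 and 63.0 CPM in treated tumors. Ank2, an ankyrin that anchors membrane proteins, differed by 0.79 (SE 0.14), Fam129a, a stress-induced gene also called Niban, by 1.25 (SE 0.24), and the transporter gene Abcg3 by 1.32 (SE 0.28). Gm9025 is a processed pseudogene, and its 0.246 to 0.799 CPM in NT and 1.97 to 3.14 CPM in treated tumors may hold reads of a related gene, which these counts cannot separate.
On the lower side, Lpin3, a phosphatidate phosphatase of lipid synthesis, was at 64.4, 55.6 and 56.9 CPM in NT and 32.0, 28.3 and 29.97 CPM with the combination, a difference of -0.97 (SE 0.20). Cnksr3, a scaffold of kinase signalling, differed by -1.14 (SE 0.22) and Csrp1, a LIM protein of smooth muscle, by -0.72 (SE 0.17). Loxhd1 differed by -2.38 (SE 0.51) and Faap20, a partner of the Fanconi anemia complex, by -0.83 (SE 0.20). The difference of 1190005I06Rik, -2.37 (SE 0.52), rests on few reads, 46, 24 and 30 in NT and 11, 5 and 7 in treated tumors. Nptx2 had 20, 55 and 16 reads in NT and 2, 1 and 0 in treated tumors, and Hrc, a calcium-binding protein of muscle, 139, 8 and 32 against 0, 0 and 6, so that their fitted differences depend on the pseudocount and are not given here as sizes.

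Itgb2l and Igsf5 are neighbours on chromosome 16 (96422288-96443619, minus strand, and 96361668-96422121, plus strand, in GRCm38). Igsf5, a junction protein, was at 26.7, 20.7 and 15.1 CPM in NT and 5.13, 5.78 and 6.69 CPM with the combination, a difference of -1.79 (SE 0.34). Itgb2l, an integrin-like gene, was at 13.2, 8.10 and 9.95 CPM against 2.14, 3.17 and 3.37 CPM, a difference of -1.84 (SE 0.34). The groups of both genes were apart. Their annotated spans run towards each other and end close together without overlap, and whether the authors' counting used strand is not given in the sources used here. Other genes of that interval, looked up after these values were seen, were lower or overlapped. Sh3bgr was at 4.28, 1.17 and 3.57 CPM in NT and 0.0428, 0.685 and 0.409 CPM in treated tumors. Dscam was at 4.28, 2.58 and 3.12 CPM against 1.45, 0 and 1.96 CPM, and Hmgn1 differed by -0.44 (SE 0.17), both with the groups apart. Lca5l differed by -0.56 (SE 0.35) and Wrb by -0.22 (SE 0.24), and both overlapped.

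Skeletal muscle fibre genes had the largest median difference of the 40 lists, and the untreated tumors differed widely in them. All 20 measured fibre genes had a negative difference, with a median of -2.16. At an unadjusted p under 0.05, 4 were lower, where all genes gave 3.95%. Their summed level was 6448, 794 and 3999 CPM in NT and 961, 945 and 648 CPM with the combination, so NT 2 lay within the treated range. Acta1, skeletal actin, was at 342, 34.3 and 351 CPM in NT and 34.1, 57.5 and 29.1 CPM in treated tumors. Without NT 2, 17 of the 20 were lower at that threshold and the median was -3.28, and without NT 1, NT 3 or the treated tumors 1, 2 and 3 in turn the count was 0, 2, 0, 2 and 5.
Myogenic progenitor genes had a median of -0.62, with 1 of 16 higher and 4 lower at an unadjusted p under 0.05. Des, desmin, was at 199, 403 and 232 CPM in NT and 110, 108 and 95.5 CPM with the combination, and Msc, a repressor of myogenic factors, at 4.16, 4.05 and 5.93 CPM against 1.11, 0.599 and 3.32 CPM. Both were apart between the groups, also against NT 2. Without NT 3 the median of the myogenic list was -0.14, with 2 higher and 3 lower. Myod1 and Myog, the factors of myogenic commitment, were at 0.479 to 24.4 CPM in NT and overlapped. Whether host muscle was taken with a tumor is not in the labels used here, and its part was not tested.

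The other cell type lists had medians on both sides. Their counts stand beside 4.7% of all genes higher and 3.95% lower at an unadjusted p under 0.05. Endothelial genes had a median of -0.05, with Pecam1 at 0.10 (SE 0.23) and 2 of 23 higher at an unadjusted p under 0.05. Fibroblast genes had a median of 0.42 with 1 of 19 higher and 3 lower at an unadjusted p under 0.05. Fap, a marker of activated fibroblasts, was at 14.7, 10.8 and 14.5 CPM in NT and 23.5, 25.9 and 26.6 CPM with the combination. Lum and Thy1 of the same list lay the other way, with log2 fold changes of -0.60 and -0.37 in the authors' deposited table. Without the treated tumor 1 the fibroblast median was 0.16, without NT 2 it was 0.17, without NT 1 0.23 and without the treated tumor 3 0.25. Without NT 3 it was 0.56 with 5 higher and 0 lower, and without the treated tumor 2 there were 2 higher and 0 lower. Smooth muscle genes had a median of -0.27 with 1 of 16 higher and 2 lower, and Actg2, an enteric actin, was at 276, 122 and 122 CPM in NT and 87.7, 40.2 and 39.2 CPM in treated tumors. Dendritic cell genes had a median of 0.44, with 11 of 12 positive, 2 higher and 1 lower at that threshold; Clec9a, a marker of cross-presenting dendritic cells, differed by 1.38 (SE 0.52). Neutrophil and mast cell genes had a median of 0.53 with 1 of 9 higher, Mmp8, and 0.22 without the treated tumor 3. Nerve and Schwann cell genes had a median of 0.00 with 2 of 11 higher and 1 lower, adipocyte genes 0.15 with 1 of 9 higher and erythroid genes 0.16 with 0 of 7. Leaving out 1 library changed the sign of the median in these last 3 lists, as the range for erythroid genes shows, from -0.43 without the treated tumor 1 to 0.77 without the treated tumor 3.

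The last question was how the combination stood beside each drug alone. The comparisons with NT share the NT libraries, and the leading genes were chosen on the combination, so their values are set side by side only. Slc7a3 differed from NT by 2.64 with the combination, 2.44 with ADI-PEG20 and 0.63 with CQ. For Cth these values were 2.73, 1.98 and 0.55, for Csf1 0.80, 0.76 and 0.35, and for Ntn1 -1.34, -0.94 and -0.20. Mmp15 had -1.41, -0.57 and 0.26, and Efemp1 1.02, 0.38 and -0.06. Fam129a was at the same distance from NT with the combination and with ADI-PEG20, at 1.25 and 1.23, and at 0.51 with CQ.

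**Figure D5:**
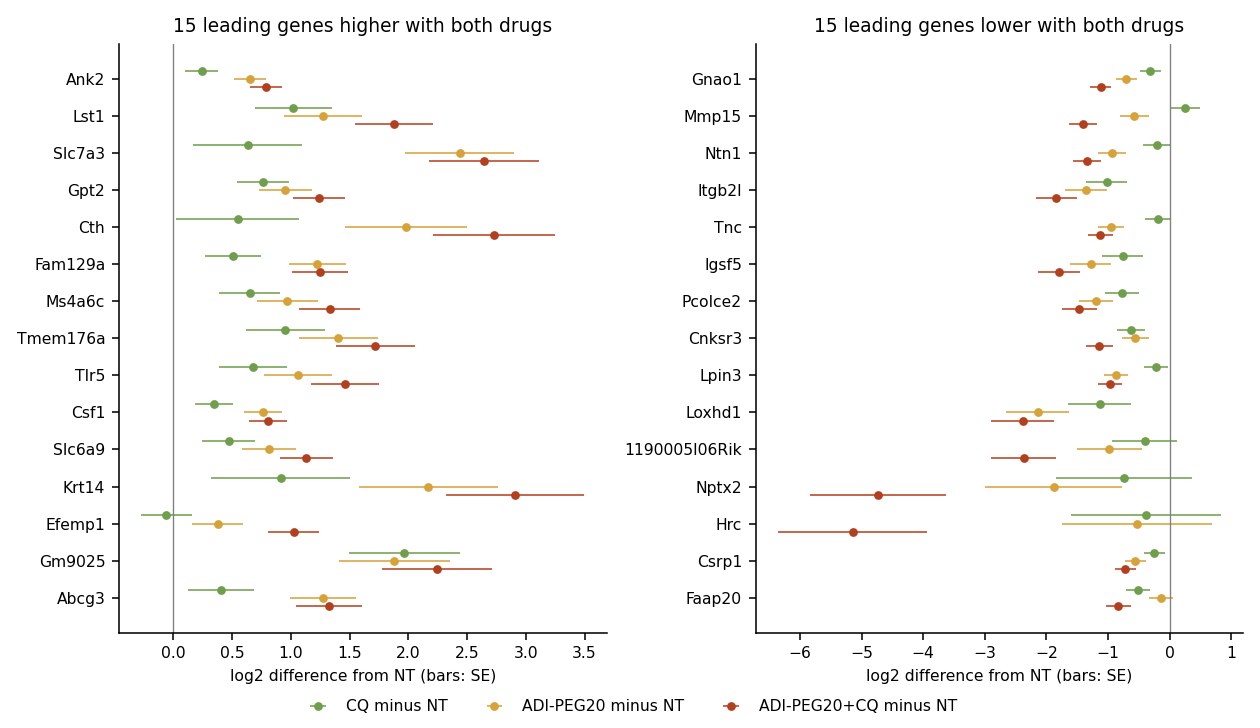
Log2 difference from NT with its SE (bars) for the 15 leading genes on each side, with CQ in green, ADI-PEG20 in yellow and the combination in red. The NT libraries are the same in all comparisons and the genes were chosen on the combination; Slc7a3 stands at 2.64, 2.44 and 0.63 for the combination, ADI-PEG20 and CQ.

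Medians of the lists, set side by side in the same way, differed in their layout. Amino acid transporters had 0.34 with the combination, 0.30 with ADI-PEG20 and 0.28 with CQ. Lysosomal genes had 0.30, 0.19 and 0.04, the CSF1 axis 0.63, 0.38 and -0.05, and macrophages 0.70, 0.57 and 0.11. Class II genes stood at 0.89, 1.52 and 0.58, the type I interferon response at 0.46, 0.38 and 0.62, and T and natural killer cells at 0.59, 1.02 and 0.80, so that the combination was not the highest in these lists. Class I and interferon gamma genes stood at 0.58, 0.69 and 0.58, and skeletal muscle fibres stood at -2.16, -0.46 and 0.34. The ADI-PEG20 tumors differed widely in muscle genes outside that list. Cacna1s was at 39.2, 3.71 and 2.52 CPM in ADI-PEG20 1, 2 and 3, Trdn at 9.05, 0.607 and 0.522 CPM, and Hrc at 5.96, 0.799 and 0.392 CPM. ADI-PEG20 1 also had the lowest median correlation with the other libraries, 0.920. The muscle medians therefore do not show a difference particular to the combination.
Direct tests of the combination against each drug called no gene. Against ADI-PEG20, 0 of 16335 passed an adjusted p of 0.05 (limma, 0% called, smallest 0.894) and 559 had an unadjusted p under 0.05. Against CQ, 0 passed (0% called, smallest 0.0986) and 1107 had an unadjusted p under 0.05. For Slc7a3 the difference of the combination was 0.21 (SE 0.47) from ADI-PEG20 and 2.01 (SE 0.47) from CQ. For Csf1 it was 0.04 (SE 0.16) and 0.46 (SE 0.16), for Ntn1 -0.40 (SE 0.23) and -1.14 (SE 0.23), and for Mmp15 -0.84 (SE 0.23) and -1.66 (SE 0.23). A difference of the combination from either drug alone is thus not shown for any gene, and these values do not show that the treatments act alike. ADI-PEG20 and CQ were not tested against each other, and an interaction was not tested.

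The authors also deposited a table of 246 KEGG pathway sets with a p-value for each comparison. The largest p-value in the authors' deposited table was 0.495 for the combination, 0.497 for ADI-PEG20 and 0.498 for CQ. The set p-values thus appear to count 1 direction only, whereas the limma p-values above count both. For the combination, the authors' deposited table gives 18 sets as higher and 0 as lower with an adjusted p under 0.05, beside 15 and 0 for ADI-PEG20 and 0 and 1 for CQ. Its smallest adjusted p for the combination was that of the hematopoietic cell lineage set (0.000119), and phagosome (0.00131) and antigen processing and presentation (0.00131) followed, in the authors' deposited table. Among measured genes of the phagosome set, 27 of 132 were higher and 2 lower at an unadjusted p under 0.05. All genes gave 4.7% and 3.95%. The set of xenobiotic metabolism by cytochrome P450 (0.00494 in the authors' deposited table) had 8 of 33 higher, among them Adh7, a retinol-oxidising dehydrogenase, at 4.04, 4.17 and 8.42 CPM in NT and 10.8, 14.9 and 16.2 CPM with the combination. Cyp1b1 of the same set was at 4.60, 5.83 and 17.8 CPM against 27.0, 40.8 and 23.4 CPM. On the lower side the smallest p belonged to cardiac muscle contraction, which did not pass (0.0522 in the authors' deposited table), and its leading genes include Cacna1s, a calcium channel of skeletal muscle, at 23.8, 5.34 and 12.1 CPM in NT and 1.41, 1.24 and 2.23 CPM in treated tumors. Many genes of these sets are those of the macrophage, presentation and muscle lists above.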

How the data were processed

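RNA of 6 tumors (3 ADI-PEG20+CQ, 3 NT) was compared within a table of 12 libraries. The submitters' processing notes list, with no role given, Salmon 0.8.2, STAR 2.5.1a, limma, edgeR, featureCounts 1.4.6-p5 of Subread and the build mm10. The authors deposited log2 CPM per library for 16335 genes (16386 lines, 51 of them repeats), with a pseudocount of 0.5 reads. Per the file headers, other columns give the authors' log2 fold changes, a signed linear fold score, and a p-value and adjusted p-value per comparison, and a second deposited table holds p-values and a score per KEGG set. Reads were recovered from the log2 CPM: 100% of values under 2000 reads came within 0.02 of a whole number. The values of all 12 libraries entered 1 fit of limma 3.58.1 in R 4.3.3 (4 groups, variance trend, Benjamini-Hochberg adjustment over all genes, threshold 0.05). The fit was checked on simulated data with 4-fold changes, which does not show how it finds smaller ones. No filter was applied beyond the authors'; the lowest gene total in the table is 85 reads. Depth was 15501998 to 28410940 reads per library. Positions are from GENCODE vM21 (GRCm38).

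Leading genes were the 15 smallest p-values on each side among genes whose 3 and 3 libraries do not overlap. From each of 40 gene lists the 4 smallest p-values in the direction of the median and up to 2 in the other direction were available to name, with Ass1, Trp53, Myf5 and Csf1; other genes named were chosen after their values were seen, as examples of their lists or as regulators known to a reader. Of 994 list genes 920 were measured. The members and lists were chosen with earlier results of these data known. The labels used here do not say whether the replicate numbers pair the libraries. Deviations of same-numbered NT and combination libraries correlated at -0.01, 0.09 and 0.11 across genes, and other pairs at -0.15 to 0.06. With 3 libraries a group these values cannot decide whether the numbers mark pairs.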

Additional observations from a re-analysis of the deposited data

How the results depend on the processing

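The count of genes called at an adjusted p of 0.05 was 0 under 15 of 17 alternatives. With a replicate block it was 8 (Ntn1, Fam129a, Cth, Slc7a3, Gnao1, Mmp15, Adm2 and Actg2, adjusted p 0.0425 to 0.0466 by limma). Whether the replicate numbers pair the libraries is not known from the labels used here. With NT 2 and ADI-PEG20 1 both left out, an alternative chosen after seeing the data, the count of genes called was 17. Among these were Actn3 (-3.35), Cacna1s (-3.41) and Atp2a1 (-5.62) of skeletal muscle and Mrc1 (1.51). Leaving out 1 of the 6 compared libraries at a time gave 469 (without the treated tumor 3) to 1145 (without NT 3) genes higher and 451 (without the treated tumor 1) to 779 (without NT 3) lower at an unadjusted p under 0.05. Without ADI-PEG20 1, which enters only the shared spread, these were 912 and 919. Over the 17 alternatives 0 of 506 values of the 30 leading genes took the other sign, and 22 of 3095 values of the list genes did. With 3 libraries a group and a median SE of 0.26, differences near the quartiles of all genes (-0.22 and 0.23) are within the error.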

Other observations

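Genes of the circadian clock were not described above. Nr1d1, a repressor of the clock, was at 46.5, 62.5 and 32.5 CPM in NT and 14.1, 11.9 and 34.4 CPM with the combination, a difference of -1.34 (SE 0.47), and NT 3 lay below treated tumor 3. Arntl, which Nr1d1 represses, was at 11.1, 14.5 and 11.8 CPM against 16.1, 21.3 and 23.3 CPM, a difference of 0.69 (SE 0.22) with the groups apart. Per3 differed by -0.65 (SE 0.35). These genes were looked up in the authors' circadian rhythm set, whose adjusted p was 0.932 in the authors' deposited table. The hour of day at which tumors were taken is not in the labels used here.

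Adm2, a peptide hormone gene, was at 0.919, 2.52 and 4.34 CPM in NT and 9.50, 11.2 and 13.1 CPM with the combination, a difference of 2.35 (SE 0.53, adjusted p 0.296 by limma). Pck2, the mitochondrial carboxykinase, was at 34.9, 49.5 and 42.7 CPM against 59.0, 79.3 and 90.1 CPM, a difference of 0.84 (SE 0.18). Pmp22, a myelin protein, was at 29.0, 32.4 and 36.5 CPM against 57.1, 53.2 and 64.8 CPM, while the nerve and Schwann cell list it belongs to had a median of 0.00. Txnip, an arrestin that limits glucose uptake, was at 70.0, 43.3 and 79.4 CPM in NT and 113, 98.9 and 106 CPM in treated tumors. In all 4 of these genes the treated tumors were above every untreated one.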
